A study of Mus musculus with 4 samples.

Results

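The 10 genes described here encode the transforming growth factor-β (TGF-β) ligands (*Tgfb1*, *Tgfb2*, and *Tgfb3*), their receptors (*Tgfbr1*, *Tgfbr2*, and *Tgfbr3*), and the latent TGF-β binding proteins (*Ltbp1*, *Ltbp2*, *Ltbp3*, and *Ltbp4*). They were chosen by name from the 23946 gene symbols listed in each library, and all 10 were above 1 FPKM in each of the 4 libraries. FPKM is a read density per gene, corrected for transcript length and for library size. Bulk RNA-seq was performed on skeletal stem/progenitor cells of the coronal (COR), sagittal (SAG), and posterior frontal (PF) cranial sutures and of the growth plate (GP) of the tibia, with 1 library per tissue. Every library came from wild-type CD-1 mice at postnatal day 3. In mice, closure is a normal event for PF alone among these 3 sutures, and GP is the long bone reference.

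The cells of all 4 libraries were sorted by FACS as CD51+ and CD200+, and as negative for CD45 and Ter119 on blood cells, for 6C3 and CD105, for Tie2, and for both forms of Thy1. The sutures were dissected together with their osteogenic fronts, mesenchyme, periosteum, and dura mater. The methods give the mice per age and not per library, so how many animals stand behind a library was not stated. The RNA was converted to cDNA and amplified with a low-input kit. With 1 library per tissue there was no spread between replicates, no test between tissues was possible, and each difference below is one between libraries. In bulk RNA, fewer cells that express a gene and less RNA of it per cell cannot be told apart.

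TGF-β is made as a precursor that the protease furin cuts into a prodomain and a mature dimer, which stay bound to each other as an inactive complex. In many cells this complex is secreted while linked to an LTBP, which tethers it to fibrillin-rich matrix, and αv integrins or proteases then free the ligand. The αv subunit is CD51, the antigen used to sort these cells. Free TGF-β binds the type II receptor (*Tgfbr2*), which recruits and phosphorylates the type I receptor (*Tgfbr1*), which in turn phosphorylates SMAD2 and SMAD3. Betaglycan (*Tgfbr3*) presents ligand to the type II receptor, above all TGF-β2, which binds that receptor weakly by itself. In the skull, TGF-β signaling is known for its part in suture patency and closure. The study blocked the pathway in SAG explants with SB431542, an inhibitor of type I receptor kinases that include *Tgfbr1*. The libraries described here were not treated.

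The summed FPKM of all genes was from 447174 to 550958 per library, and 11402 to 12263 genes were at 1 FPKM or more. Fragment totals were not given with the FPKM values. Relative depth, read from the commonest low value of FPKM multiplied by transcript length, was 43.5% of the SAG library in PF, 93.3% in COR, and 87.1% in GP. *Itgav*, the gene of CD51, was at 6.20 to 15.0 FPKM and *Cd200* at 23.5 to 62.6 FPKM, while *Ptprc*, *Tek*, and *Thy1*, whose antigens were sorted out, were below 1 FPKM in all 4 libraries. *Enpep*, the gene of 6C3, was at 1.39 to 7.05 FPKM and *Eng*, the gene of CD105, at 0.679 to 1.70 FPKM, although both antigens were gated out. Summed chondrocyte markers (10 genes, 0 of them at 0) stood at 4907 FPKM in SAG and 3294 in GP against 156 in PF and 177 in COR. Choroid plexus markers (8 genes, 0 of them at 0) stood at 5406 FPKM in SAG, of which *Ttr* made up 5103, and at 135 to 511 FPKM in the other libraries. *Ttr*, *Otx2*, *Folr1*, *Clic6*, *Kcne2*, and *Kl* were highest in SAG. *Aqp1* went the other way, lowest in SAG at 11.9 FPKM and highest in COR at 53.8. *Enpp2* was highest in GP, at 83.0 FPKM against 55.8 in SAG. Leukocyte markers (5 genes, with *Tyrobp* at 0 in every library), endothelial markers (5 genes, 0 of them at 0), and platelet markers (4 genes) summed to at most 31.4, 16.9, and 2.05 FPKM. Neuron markers (6 genes) summed to 82.1 FPKM in PF and at most 22.2 FPKM elsewhere. Of the PF sum, 78.8 FPKM was *Gap43*, while the other 5 genes were at most 1.65 FPKM in PF, with *Snap25* at 0 in PF, COR, and GP, *Map2*, *Syt1*, and *Snap25* highest in SAG, *Tubb3* in COR, and *Stmn2* in GP. The COR file lists 0 FPKM for the abundant matrix genes *Col1a1*, *Col1a2*, *Col3a1*, and *Sparc*, and the GP file for *Col1a2*, while none of the 10 TGF-β genes is listed at 0 anywhere.

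The ligands differ in the short stretch of the prodomain through which αv integrins pull on the latent complex, so the matching stretch of each coding sequence is shown, with the 3 codons of the integrin-binding tripeptide in capitals. All 3 stretches are in exon 5 of 7, and positions are on mm9, the build to which the reads were mapped.
Tgfb1: cccaaacgtCGGGGCGACctgggcacc
Tgfb2: acatatgccAGTGGTGATcagaaaact
Tgfb3: gaccatggcCGTGGAGACctggggcgt
The *Tgfb1* stretch lies on the forward strand at chr7:26482152-26482178, and its capitals are codons 244 to 246 for arginine, glycine, and aspartate. The *Tgfb3* stretch, on the reverse strand at chr12:87403106-87403132, has the same 3 residues at codons 261 to 263. In *Tgfb2*, on the reverse strand at chr1:188454623-188454649, the aligned codons 261 to 263 encode serine, glycine, and aspartate, so the tripeptide of the other two ligands is not at this place. Over the 112 residues of the mature ligand, 72.3% were identical between *Tgfb1* and *Tgfb2*, 77.7% between *Tgfb1* and *Tgfb3*, and 78.6% between *Tgfb2* and *Tgfb3*. Identity over the aligned residues before the mature ligand, the signal peptide and the prodomain together, was lower in each pair. It went from 39.1% between *Tgfb1* and *Tgfb3* to 48.99% between *Tgfb2* and *Tgfb3*.

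*Tgfb3* was the most abundant TGF-β ligand transcript in all 4 libraries. Its gene lies at chr12:87397694-87419991 on the reverse strand. *Tgfb3* was at 121 FPKM in PF, 112 in GP, 94.2 in COR, and 61.5 in SAG, which placed it above 88.1% to 92.9% of the genes at 1 FPKM or more in each library. PF and GP stood close together at the top, with a highest-to-lowest ratio of 1.97 across the libraries and SAG at the bottom.

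*Tgfb1* had the widest range of the 10 genes. TGF-β1 is the ligand stored in bone matrix, and its gene lies at chr7:26472021-26490096 on the forward strand. *Tgfb1* was at 30.2 FPKM in COR, 8.92 in GP, 6.002 in SAG, and 2.63 in PF. The COR level was 11.5 times the PF level and 3.39 times that of GP, the next library, while SAG and GP lay 1.49-fold apart. The PF value is the lowest of the 10 genes in any library. It comes from the shallowest library and, multiplied by transcript length, equals about 94.9 times the commonest low value seen there. PF is also the library in which GC-rich transcripts ran higher than in the others: across genes, the Spearman correlation of the log2 ratio with transcript GC content was 0.38 for PF over SAG, 0.30 for PF over COR, and 0.38 for PF over GP. The *Tgfb1* transcript has 62.5% GC, the highest of the 10 genes, against a median of 50.6% over all genes. The part of GC content in the *Tgfb1* levels was not tested beyond the corrected ratios, which were -1.66 for PF over SAG, -3.56 for PF over COR, and -1.999 for PF over GP on the log2 scale.

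*Tgfb2* ran the other way, with its highest level in SAG and its lowest in COR. TGF-β2, encoded at chr1:188447065-188529871 on the reverse strand, is the ligand that depends most on betaglycan. *Tgfb2* was at 38.4 FPKM in SAG, 27.3 in GP, 22.4 in PF, and 14.7 in COR, a highest-to-lowest ratio of 2.61. In COR, *Tgfb1* stood above *Tgfb2*, while in the other 3 libraries *Tgfb2* stood above *Tgfb1*. SAG, where *Tgfb2* was highest, was also highest in the summed chondrocyte and choroid plexus markers given above, and their part in the *Tgfb2* level was not tested.

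**Figure D1:**
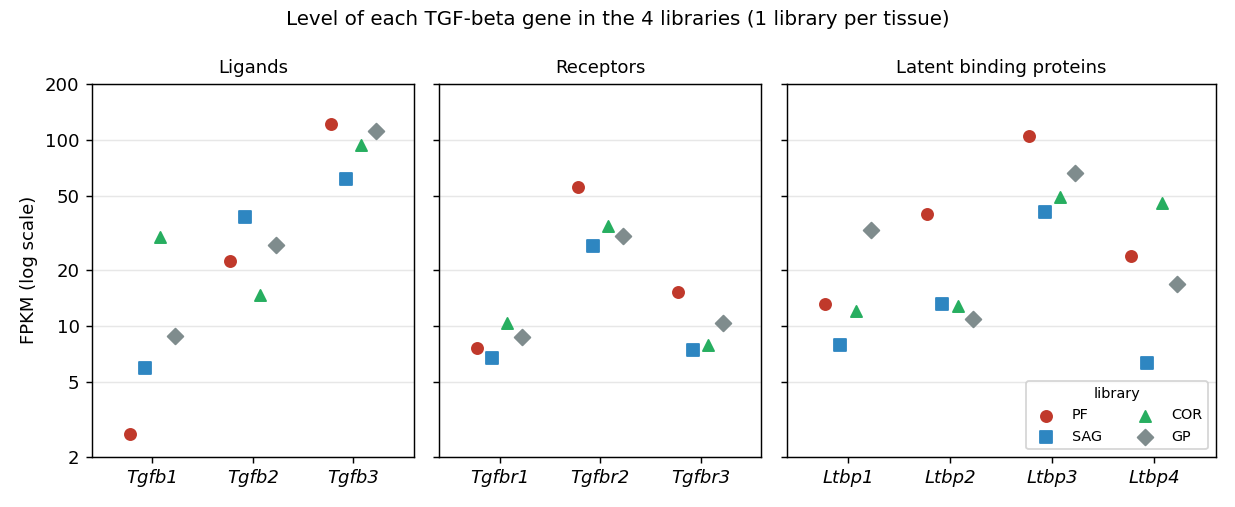
Level of the 10 genes in FPKM (log axis), in 3 panels for ligands, receptors, and latent binding proteins, with 1 point per library (PF, SAG, COR, and GP) and no error bars because each tissue has 1 library. *Tgfb1* spreads from 2.63 FPKM in PF to 30.2 in COR, while the points of *Tgfbr1* lie between 6.78 and 10.5 FPKM.

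Since *Tgfb1* and *Tgfb2* ran in opposite directions between COR and SAG, the 150 bases before their start sites are shown from RefSeq on GRCm38.p6, a later build than that of the reads. Promoter entries were found for 8 of the 10 genes. Motifs were searched on both strands, and capitals mark TATAAA (the TATA box) and GGGCGG (the core GC box, CCGCCC on the other strand).
Tgfb1: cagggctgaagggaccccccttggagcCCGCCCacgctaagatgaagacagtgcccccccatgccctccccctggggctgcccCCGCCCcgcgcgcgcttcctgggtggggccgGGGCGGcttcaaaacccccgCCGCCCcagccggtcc
Tgfb2: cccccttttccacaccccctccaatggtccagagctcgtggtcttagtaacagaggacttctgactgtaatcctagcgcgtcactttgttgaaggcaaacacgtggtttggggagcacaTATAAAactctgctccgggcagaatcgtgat
The *Tgfb1* window, at chr7:25686852-25687001 on the forward strand, was 76% GC and held 4 matches to GGGCGG and 0 to TATAAA. The *Tgfb2* window, at chr1:186705990-186706139 on the reverse strand, was 51.3% GC and held 1 match to TATAAA, 31 to 26 bases before the start, and 0 to GGGCGG. Among 32851 promoter windows of this length, 28.6% held GGGCGG and 7.57% held TATAAA. Neither window held the AP-1 motif TGACTCA (in 2.84% of windows) or the CRE motif TGACGTCA (in 1.36%). A match describes the letters of the window and says nothing of binding in these cells.

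Within each library, FPKM was set side by side between genes because it is given per transcript length. The summed ligand level was 148 FPKM in GP, 146 in PF, 139 in COR, and 106 in SAG. *Tgfb3* made up 82.9% of it in PF, 75.5% in GP, 67.7% in COR, and 58.0% in SAG. The share of *Tgfb1* was 21.7% in COR, 6.03% in GP, 5.67% in SAG, and 1.80% in PF. For *Tgfb2*, the share was 36.3% in SAG, 18.5% in GP, 15.3% in PF, and 10.6% in COR. The sums of PF, COR, and GP thus lay within 10 FPKM of each other while the makeup behind them differed, and SAG had both the lowest sum and the largest *Tgfb2* share. The ratio of *Tgfb3* to *Tgfb1* was 46.0 in PF, 12.5 in GP, 10.2 in SAG, and 3.12 in COR. Because these are ratios within a library, no common factor per library changes them. The GC trend of PF given above is not such a factor. GC content was 62.5% for the *Tgfb1* transcript, 53.0% for *Tgfb3*, and 47.5% for *Tgfb2*. The ligand shares and ratios were not recomputed with the GC correction.

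Among the receptors, *Tgfbr2* was the most abundant transcript in every library. It encodes the type II receptor kinase and lies at chr9:115993415-116084383 on the reverse strand. *Tgfbr2* was at 56.1 FPKM in PF, 34.4 in COR, 30.3 in GP, and 27.03 in SAG. PF stood apart at 1.63 times the next library, COR, and the remaining 3 libraries lay within 1.27-fold of each other.

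*Tgfbr1* differed least among the 10 genes. It encodes the type I receptor kinase ALK5, the target of SB431542, and lies at chr4:47366094-47427803 on the forward strand. *Tgfbr1* was at 10.5 FPKM in COR, 8.81 in GP, 7.67 in PF, and 6.78 in SAG, a highest-to-lowest ratio of 1.55. No pair of neighbors in this order differed by more than 1.19-fold. In the SAG library, the tissue in which the study applied the inhibitor, *Tgfbr1* was at its lowest and stood above 39.3% of the genes at 1 FPKM or more, although PF was the lowest library for it after rescaling to a common total.

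*Tgfbr3*, which encodes the co-receptor betaglycan at chr5:107535589-107718648 on the reverse strand, was at 15.3 FPKM in PF, 10.4 in GP, 7.98 in COR, and 7.49 in SAG. SAG and COR lay only 1.07-fold apart, and PF was 2.04 times SAG. *Tgfbr3* stood above *Tgfbr1* in PF, SAG, and GP and below it in COR. SAG thus paired the highest level of *Tgfb2* with the lowest level of *Tgfbr3*, although COR was lowest for *Tgfbr3* after rescaling to a common total.

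The summed receptor level was 79.1 FPKM in PF, 52.9 in COR, 49.5 in GP, and 41.3 in SAG. *Tgfbr2* made up 71.0% of this sum in PF, 65.1% in COR, 65.4% in SAG, and 61.3% in GP. The ratio of *Tgfbr2* to *Tgfbr1*, of type II to type I receptor, was 7.32 in PF, 3.99 in SAG, 3.44 in GP, and 3.28 in COR. The makeup of the receptor group therefore varied less between libraries than that of the ligands, and PF stood apart by its higher type II to type I ratio. The *Tgfbr1* transcript has the lowest GC content of the 10 genes, 41.0% against 49.7% for *Tgfbr2*. After correction for GC content, the *Tgfbr1* log2 ratio went from 0.16 to 0.72 for PF over SAG. It went from -0.40 to -0.050 for PF over COR and from -0.18 to 0.30 for PF over GP. The *Tgfbr2* ratios rose less, to 1.10, 0.77, and 0.93. The type II to type I ratio was not recomputed with this correction.

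*Ltbp3* was the most abundant latent binding protein transcript in all 4 libraries. LTBP-3 is a carrier of latent TGF-β known for its role in bone and tooth formation, and its gene lies at chr19:5740904-5758532 on the forward strand. *Ltbp3* was at 105 FPKM in PF, 66.1 in GP, 49.4 in COR, and 41.2 in SAG. PF stood apart at 1.58 times GP, and COR and SAG lay 1.20-fold apart.

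*Ltbp3*, *Tgfb3*, and *Tgfbr3* shared the order PF, GP, COR, SAG from high to low, except that COR and SAG changed places for *Tgfbr3* after rescaling to a common total and PF and GP changed places for *Tgfb3* after the GC correction. Smooth muscle and pericyte markers (5 genes, 0 of them at 0) summed to 785 FPKM in PF, 586 in GP, 320 in COR, and 65.4 in SAG, the same order. The sum rests on *Acta2* (530.4 FPKM in PF) and *Tagln* (221 FPKM in PF), the 2 of the 5 genes that followed this order. The other 3 did not: *Myh11* and *Rgs5* were highest in GP, at 19.2 and 10.8 FPKM against 17.3 and 7.50 in PF, and *Cspg4* was lowest in PF, at 8.81 FPKM, and highest in COR, at 19.7. The part of these markers in the levels of *Ltbp3*, *Tgfb3*, and *Tgfbr3* was not tested.

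*Ltbp4* had the widest range of the family. LTBP-4 binds latent TGF-β1 and takes part in elastic fiber assembly, and its gene lies at chr7:28090155-28122711 on the reverse strand. *Ltbp4* was at 45.5 FPKM in COR, 23.7 in PF, 16.9 in GP, and 6.32 in SAG. The COR level was 1.92 times that of PF and 7.21 times that of SAG, and SAG lay 2.68-fold under GP. COR was therefore the library with the highest levels of both *Tgfb1* and *Ltbp4*. Osteoblast markers (6 genes, 0 of them at 0, each of the 6 highest in COR) summed to 3522 FPKM in COR, against 1299 in GP, 1082 in PF, and 269.7 in SAG, and their part in the *Tgfb1* and *Ltbp4* levels was not tested. The orders were not the same throughout, since *Tgfb1* was lowest in PF and the osteoblast sum and *Ltbp4* were lowest in SAG.

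*Ltbp1* was highest in GP. LTBP-1 is the binding protein first found in complex with latent TGF-β1, and its gene lies at chr17:75404908-75791852 on the forward strand. *Ltbp1* was at 32.8 FPKM in GP, 13.2 in PF, 12.1 in COR, and 7.96 in SAG. GP stood at 2.48 times PF, while PF and COR lay only 1.09-fold apart. Of the chondrocyte markers, *Acan*, *Comp*, *Hapln1*, and *Matn3* were higher in GP than in SAG and the other 6 were not, and their part in the *Ltbp1* level was not tested.

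*Ltbp2* was highest in PF. LTBP-2 is the member of the family that does not bind latent TGF-β and associates with microfibrils, and its gene lies at chr12:86124162-86217482 on the reverse strand. *Ltbp2* was at 40.2 FPKM in PF against 12.9 in COR, 13.2 in SAG, and 11.003 in GP. PF stood at 3.04 times SAG, while SAG, COR, and GP lay within 1.20-fold of each other. An exon of *Ltbp2* overlaps *D030025P21Rik* on the opposite strand, which was below 1 FPKM in all 4 libraries. Whether reads were assigned by strand was not stated, so reads in that overlap could count for either gene. The transcripts of *Ltbp2*, *Ltbp3*, and *Ltbp4* have 58.5%, 61.5%, and 62.2% GC, above the median of all genes, and PF over SAG is a pair in which GC-rich genes ran higher in PF. With the GC correction, the log2 ratio of PF over SAG went from 1.53 to 0.99 for *Ltbp2* and from 1.33 to 0.65 for *Ltbp3*, so that both were still higher in PF but by less.

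The summed LTBP level was 182 FPKM in PF, 127 in GP, 119.9 in COR, and 68.7 in SAG. Relative to the ligand sum of the same library it was 1.24 in PF, 0.862 in COR, 0.858 in GP, and 0.649 in SAG. *Ltbp3* made up 59.9% of the sum in SAG, 57.6% in PF, 52.1% in GP, and 41.2% in COR. The next in rank differed between the tissues: it was *Ltbp2* with 22.1% in PF and 19.3% in SAG, *Ltbp4* with 37.98% in COR, and *Ltbp1* with 25.9% in GP. PF had the largest sum, which includes the LTBP that does not bind latent TGF-β. With the GC correction, the log2 ratio of PF over GP, the next library, fell for each of the LTBP genes. It went from 0.66 to 0.14 for *Ltbp3* and from 0.46 to -0.076 for *Ltbp4*. For *Ltbp2* it went from 1.78 to 1.36, and for *Ltbp1* from -1.25 to -1.38. The sums and their ratio to the ligand sum were not recomputed with this correction.

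**Figure D2:**
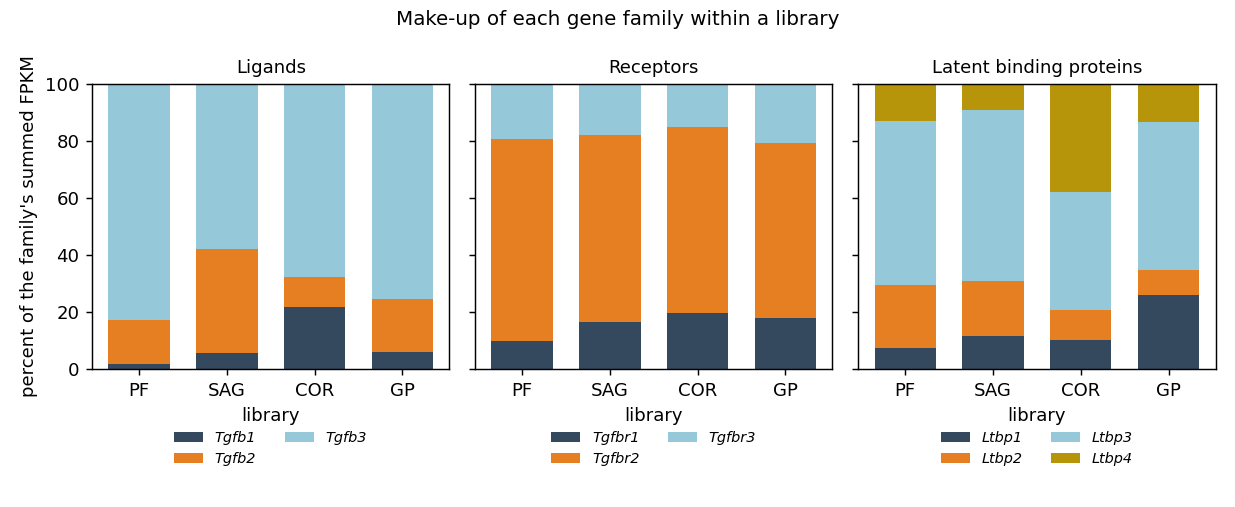
Makeup of the summed FPKM of ligands, receptors, and latent binding proteins in each library, as stacked bars from 0 to 100%, with 1 color per gene. *Tgfb3*, *Tgfbr2*, and *Ltbp3* are the largest segments in every bar, *Tgfb1* reaches 21.7% of the ligands in COR, and *Ltbp4* reaches 37.98% of the latent binding proteins there.

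The 10 genes were then compared over all 6 pairs of libraries on the log2(FPKM + 1) scale, where the pseudocount of 1 understates the change of low genes. The range from the lowest to the highest library had a median of 1.33 over the 10 genes, equal to 2.51-fold. Over all 13998 genes at 1 FPKM or more in at least 1 library it was 1.01, equal to 2.02-fold, and over the 9802 genes at 5 FPKM or more it was 0.93, equal to 1.90-fold. Of the 10 genes, 7 lay above the first median and 9 above the second, with *Tgfbr1*, at 0.56, below both. Ratios of 3-fold or more on this scale were counted. The study also used a fold of 3 but required a significant difference, which could not be tested here. On plain FPKM, *Ltbp2* in PF against SAG (3.04) and COR (3.12) and *Tgfb1* in GP against PF (3.39) also passed 3-fold. They are not in the count. By this count, 4 of the 10 genes differed in at least 1 pair (*Tgfb1* in 3 of 6 pairs, *Ltbp4* in 2, *Ltbp1* in 1, and *Ltbp2* in 1), and so did 24.7% of all genes. None of the receptor genes differed 3-fold in any pair, nor did *Tgfb2*, *Tgfb3*, or *Ltbp3*.

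The position of the highest and the lowest library was read in the same way. PF was the highest library for 5 of the 10 genes (*Tgfb3*, *Tgfbr2*, *Tgfbr3*, *Ltbp2*, and *Ltbp3*) and for 35.2% of all genes. COR was highest for 3 (*Tgfb1*, *Tgfbr1*, and *Ltbp4*; 19.9% of all genes), SAG for 1 (*Tgfb2*; 28.4%), and GP for 1 (*Ltbp1*; 16.4%). SAG was the lowest library for 7 of the 10 (*Tgfb3*, all 3 receptors, *Ltbp1*, *Ltbp3*, and *Ltbp4*) and for 25.2% of all genes. This number fell to 4 when FPKM was rescaled to a common total, with *Tgfbr1* then lowest in PF, *Tgfbr2* in GP, and *Tgfbr3* in COR, and it was 7 under the other 3 scalings. PF was lowest for *Tgfb1* (34.3% of all genes), COR for *Tgfb2* (18.9%), and GP for *Ltbp2* (17.3%). The same genes were highest in the same libraries under all 4 scalings tried, while the correction for GC content put *Tgfb3* lower in PF than in GP, at a log2 ratio of -0.036.

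**Figure D3:**
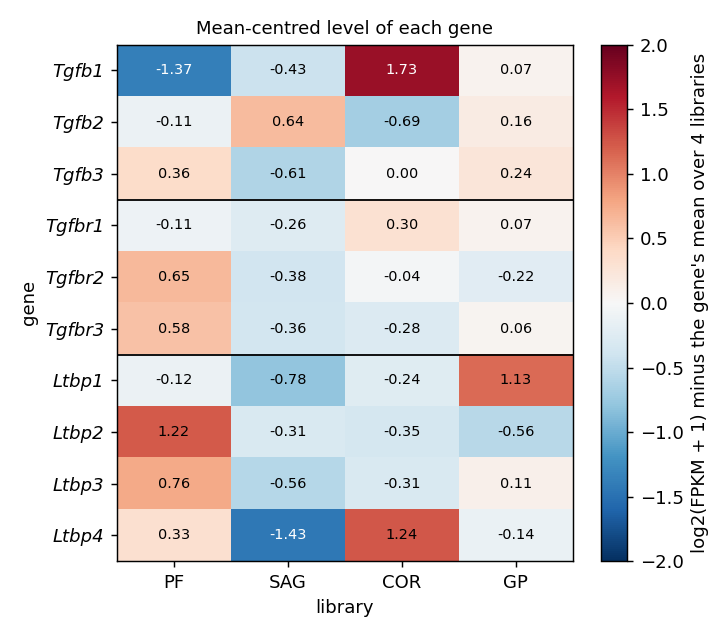
Heat map of log2(FPKM + 1) of the 10 genes (rows) in the 4 libraries (columns), each minus the mean of the gene over the 4 libraries, with red above and blue below that mean. SAG is below the mean for 9 of the 10 genes, *Tgfb2* being the exception, and *Tgfb1* and *Ltbp4* are the reddest squares of COR.

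Between the fusing PF and the patent SAG suture, *Ltbp4* was 3-fold or more higher in PF, with a log2 ratio of 1.76. This was 1 of 10 genes, against 6.64% of all 13490 genes, and 0 of 10 were 3-fold higher in SAG, against 9.04%. *Ltbp2* lay just under the limit of 1.58 with a log2 ratio of 1.53. The median log2 ratio of the 10 genes was 0.95, compared with 0.03 over all genes. In PF 8 of 10 were higher, against 51.0% of all genes, or 7 after rescaling to a common total, under which *Tgfbr1* turned to -0.11. The exceptions, *Tgfb1* at -0.95 and *Tgfb2* at -0.75, are both ligands. The *Ltbp4* ratio was 1.05 after correction for transcript GC content and 1.48 after rescaling to a common total, both under the limit.

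Between PF and COR, *Tgfb1* was the gene that differed, at a log2 ratio of -3.10, or 8.59-fold higher in COR on this scale. It was 1 of 10 genes, against 4.87% of all 12853 genes higher in COR, and 0 of 10 were 3-fold higher in PF, against 6.81%. *Ltbp2*, at 1.57 in favor of PF, lay just under the limit. The median of the 10 genes was 0.47, against 0.05 over all genes. In PF 7 of 10 were higher, against 52.3% of all genes, or 6 after rescaling to a common total, under which *Ltbp1* turned to -0.034.

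Between the patent COR and SAG sutures, *Tgfb1* and *Ltbp4* were both higher in COR, with log2 ratios of 2.16 and 2.67. These were 2 of 10 genes, against 3.11% of all 12720 genes, while 0 of 10 were 3-fold higher in SAG, against 6.15%. *Tgfb2* had the largest ratio in favor of SAG, at -1.32. The median of the 10 genes was 0.44, against -0.02 over all genes. In all, 8 of 10 were higher in COR, against 48.6% of all genes, although *Tgfbr3* turned to -0.037 after rescaling to a common total. *Ltbp2*, lower in COR at -0.037, turned positive under quantile normalization and relative to *Gapdh*.

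Between PF and GP, *Ltbp2* was higher in PF with a log2 ratio of 1.78, which fell to 1.36 after correction for GC content. It was 1 of 10 genes, against 5.72% of all 13101 genes, and 0 of 10 were 3-fold higher in GP, against 6.24%. The largest ratios in favor of GP were those of *Tgfb1*, at -1.45, and *Ltbp1*, at -1.25. The median was 0.29, against 0.03 over all genes, with 6 of 10 higher in PF, against 51.3% of all genes. Signs were not stable for the genes close to 0: *Tgfb2* and *Tgfbr1* changed sign relative to *Gapdh*, and *Tgfb3*, *Tgfbr1*, and *Ltbp4* changed sign after the GC correction.

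Between SAG and GP, *Ltbp1* was higher in GP with a log2 ratio of -1.92. It was 1 of 10 genes, against 3.86% of all 12929 genes, and 0 of 10 were 3-fold higher in SAG, against 4.80%. In this pair 8 of 10 genes were higher in GP, against 47.9% of all genes. After rescaling to a common total it was 7 of 10, since *Tgfbr2* turned to 0.037. The median was -0.46 against 0.03 over all genes. *Tgfb2* and *Ltbp2* were higher in SAG, at 0.48 and 0.25. Between COR and GP, *Tgfb1* was higher in COR with a log2 ratio of 1.65, which was 1.54 after the GC correction. It was 1 of 10 genes, against 1.20% of all 12209 genes, and 0 of 10 were 3-fold higher in GP, against 3.20%. In that pair the median was -0.03, against 0.02 over all genes. On each side 5 of 10 genes were higher, against 52.0% of all genes in COR and 48.0% in GP. With 10 genes, a count of 1 is the smallest step there is, so it cannot be set apart from the shares over all genes. The 6 pairs share their libraries and are not independent of each other.

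Other genes of the pathway were taken as 6 lists with 53 distinct genes, of which 49 were at 1 FPKM or more in at least 1 library. Of these, 18 (36.7%) differed 3-fold or more in at least 1 pair, against 24.7% of all genes. They were spread unequally over the lists, from 1 of 16 signal transduction genes to 3 of 4 proteoglycans.

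Of the 13 latency and activation genes at 1 FPKM or more, 5 differed in at least 1 pair. *Lrrc32* (GARP, which holds latent TGF-β on the cell surface) was at 18.7 FPKM in PF, 5.84 in GP, 1.98 in COR, and 1.503 in SAG. *Fbn1*, the gene of the fibrillin to which LTBPs attach, was at 22.8 FPKM in PF, 14.2 in GP, 8.14 in COR, and 6.11 in SAG, and *Fbn2* at 20.7 FPKM in GP, 11.5 in PF, 1.97 in SAG, and 1.63 in COR. PF and GP were thus the libraries with the higher levels of both fibrillins. *Itgb5*, an αv partner subunit, was at 303 FPKM in PF and 324 in COR against 99.1 in SAG and 105 in GP, and *Itgb3*, another αv partner, was at 5.86 FPKM in COR, 4.85 in GP, 1.20 in PF, and 1.01 in SAG. The most abundant genes of the list, the matrix proteases *Mmp2* and *Mmp14*, were at 491 to 857 and 575 to 705 FPKM and differed 3-fold in no pair. Between PF and SAG, 4 of 13 were 3-fold higher in PF and 0 in SAG, with a median log2 ratio of 0.93, against 6.64%, 9.04%, and a median of 0.03 over all genes. Between PF and COR, 2 of 13 were higher in PF (*Lrrc32* and *Fbn2*; 6.81% of all genes) and 1 in COR (*Itgb3*; 4.87%). Between COR and SAG, 2 of 12 were higher in COR (*Itgb3* and *Itgb5*; 3.11% of all genes) and 0 in SAG (6.15%). Between PF and GP, 0 of 13 differed in either direction (5.72% and 6.24% of all genes). GP was 3-fold higher than SAG in 1 of 13 (*Fbn2*; 3.86%) and lower in 0 (4.80%), and COR was higher than GP in 1 of 13 (*Itgb5*; 1.20%) and lower in 1 (*Fbn2*; 3.20%).

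Of 16 signal transduction genes, only *Tgif1*, a repressor of Smad-driven transcription, differed 3-fold: it was at 36.6 FPKM in SAG, 23.6 in GP, 14.8 in COR, and 4.91 in PF. The most abundant were *Smad4*, the shared partner of the receptor Smads, at 39.7 to 57.1 FPKM, and *Smad6*, an inhibitory Smad, at 24.2 to 54.0 FPKM. The receptor Smads of the pathway, *Smad2* and *Smad3*, were at 5.08 to 8.22 and 3.85 to 9.29 FPKM. *Tgif1* passed 3-fold in 2 pairs, as higher in SAG than in PF (9.04% of all genes) and higher in GP than in PF (6.24%). The median log2 ratio of the list lay between -0.26 and 0.28 in all 6 pairs.

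Among 5 co-receptors and related receptors at 1 FPKM or more, 2 differed. *Cd109*, a co-receptor that lowers TGF-β signaling, was at 37.4 FPKM in COR, 23.2 in GP, 15.9 in SAG, and 5.39 in PF, the order of libraries seen for *Tgfb1*. *Acvrl1*, the gene of the type I receptor ALK1, was at 14.8 FPKM in PF, 4.302 in COR, 3.64 in GP, and 1.98 in SAG. *Bambi*, a pseudoreceptor without kinase, was at 22.2 to 42.1 FPKM and differed 3-fold in no pair. By direction, *Acvrl1* was 3-fold higher in PF than in SAG (6.64% of all genes) and GP (5.72%), and *Cd109* was 3-fold lower in PF than in COR (4.87%) and GP (6.24%).

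The matrix proteoglycans that bind TGF-β in the extracellular space differed in 3 of 4 genes. *Dcn* (decorin) was at 2503 FPKM in PF, 2268 in GP, 1271 in COR, and 496 in SAG, in the order shared by *Tgfb3*, *Ltbp3*, and *Tgfbr3*. *Fmod* (fibromodulin) was at 1828 FPKM in GP, 1110.3 in PF, 1078 in SAG, and 565 in COR. *Aspn* (asporin) stood at 1115 FPKM in COR and 1166 in GP against 222 in PF and 126 in SAG. *Bgn* was the gene that differed 3-fold in no pair. Between SAG and GP, 2 of 4 were 3-fold higher in GP, with a median log2 ratio of -1.74, against 3.86% and a median of 0.03 over all genes. *Dcn* was also 3-fold higher in PF than in SAG (6.64% of all genes) and *Fmod* 3-fold lower in COR than in GP (3.20%). *Aspn* was 3-fold higher in COR than in PF (4.87%) and SAG (3.11%), and higher in GP than in PF (6.24%).

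Of 11 target genes at 1 FPKM or more, 6 differed, and not in a common direction. *Tagln*, a smooth muscle gene that also stands in the smooth muscle and pericyte markers, was at 221 FPKM in PF, 139 in GP, 65.4 in COR, and 15.9 in SAG. *Pmepa1*, a feedback inhibitor, was at 132 FPKM in PF, 76.9 in COR, 66.1 in GP, and 38.9 in SAG, again with PF at the top and SAG at the bottom. *Postn* (periostin) stood at 2358 FPKM in COR and at 1284 in GP against 166 in PF and 191 in SAG. COR and GP were thus the high libraries for *Postn* as for *Aspn*. *Junb*, an AP-1 gene, was at 1553 FPKM in SAG against 119 in PF, 109 in COR, and 268 in GP. *Ctgf* was at 518 FPKM in GP and 277 in SAG against 195 in PF and 99.6 in COR, and *Cdkn2b*, a cell cycle inhibitor, was at 3.50 FPKM in PF against 12.8 to 13.4 in the other libraries. *Tsc22d1*, at 383 to 871 FPKM, was abundant and differed 3-fold in no pair. Between PF and SAG, 2 of 11 targets were 3-fold higher in PF (*Pmepa1* and *Tagln*) and 2 in SAG (*Cdkn2b* and *Junb*), with a median log2 ratio of -0.51, against 6.64%, 9.04%, and a median of 0.03 over all genes. Between PF and COR, 1 of 11 was higher in PF and 2 in COR, against 6.81% and 4.87% of all genes. Between COR and SAG, 2 were higher in COR and 1 in SAG, against 3.11% and 6.15%. Between PF and GP, 0 were higher in PF and 2 in GP, against 5.72% and 6.24%. Between SAG and GP, 1 was higher in SAG and 2 in GP, against 4.80% and 3.86%, and between COR and GP, 0 were higher in COR and 1 in GP, against 1.20% and 3.20%. The library with the most *Tgfb1*, COR, was the lowest for *Ctgf*, *Junb*, and *Tsc22d1* and the highest for *Postn* and, by a small margin, *Cdkn2b*.

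The study read out its SB431542 treatment of cultured SAG explants by PCR of *Smad6*, *Id2*, and *Bglap*, besides histology and FACS. In these untreated libraries of freshly sorted cells, *Smad6* was at 54.0 FPKM in COR, 32.5 in PF, 31.7 in SAG, and 24.2 in GP. *Id2*, a BMP target, was at 299 FPKM in SAG, 198 in COR, 188 in PF, and 174 in GP. *Bglap* (osteocalcin, a gene of mature osteoblasts) differed most, at 790.1 FPKM in COR, 426 in PF, 159 in GP, and 67.1 in SAG, and was the 1 of 3 that differed 3-fold, as higher in PF than in SAG (6.64% of all genes) and higher in COR than in SAG (3.11%) and GP (1.20%). *Bglap* is also in the osteoblast markers, so its level is no separate measurement from that sum.

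**Figure D4:**
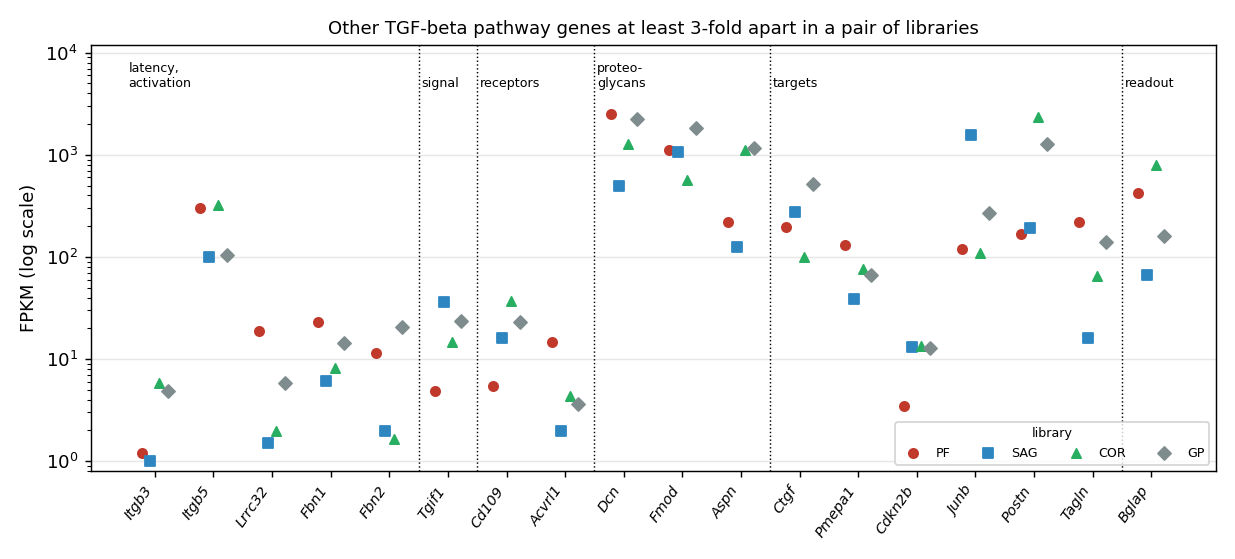
Level in FPKM (log axis) of the 18 other pathway genes that differed 3-fold or more in at least 1 pair of libraries, grouped by list, with 1 point per library and no error bars because each tissue has 1 library. PF is the top point for *Lrrc32*, *Fbn1*, *Acvrl1*, *Dcn*, *Pmepa1*, and *Tagln*, SAG for *Tgif1* and *Junb*, COR for *Itgb3*, *Itgb5*, *Cd109*, *Cdkn2b*, *Postn*, and *Bglap*, and GP for *Fbn2*, *Fmod*, *Aspn*, and *Ctgf*.

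For the gene with the widest range in each family, the genes with the most similar pattern over the 4 libraries were found by the Euclidean distance of mean-centered log2(FPKM + 1), among 9801 other genes at 5 FPKM or more in at least 1 library. For *Tgfb1*, 2 genes lay within a distance of 0.5. The nearest were *Mamdc2* (distance 0.45), at 31.7 FPKM in COR, 8.98 in GP, 8.77 in SAG, and 2.36 in PF, and *Dkk1* (0.45), a secreted Wnt antagonist, at 27.04 FPKM in COR, 8.05 in GP, 4.74 in SAG, and 3.52 in PF, with *Rab27b* next (0.52). For *Ltbp4*, 16 genes lay within 0.5, and the nearest were *Gpr153* (0.20), *Lipc* (0.27), and *Col22a1* (0.28). For *Tgfbr2*, 1302 genes lay within 0.5, led by *Ifi35* (0.029), *Xylt2* (0.037), and *Chtf18* (0.040). The distance was not scaled for range, which was 3.10 for *Tgfb1*, 2.67 for *Ltbp4*, and 1.03 for *Tgfbr2*. The numbers of genes within 0.5 therefore depend on range and do not show how common the shape of a pattern was. With 4 libraries, such distances describe likeness in these libraries only.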

How the data were processed

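Reads were aligned by the authors to mm9 with STAR 2.5.1b, and FPKM was estimated with Cuffdiff (Cufflinks 2.2.1) on an Illumina iGenomes gene model. The deposited FPKM tables have 1 row per symbol. How Cuffdiff scaled the libraries, and whether reads were assigned by strand, is not given in the sources used here. Without counts, no counting error can be stated. Log2 ratios used a pseudocount of 1 and genes at 1 FPKM or more in at least 1 library compared. No test was made. The 10 genes and all lists were chosen with earlier results of these data known.

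Besides the 10 genes, the text names the 2 most abundant genes of each pathway list and those past 3-fold in any pair (at most the 6 with the widest range), the 3 genes nearest in pattern to the widest-ranging gene of each family, the sorting genes, and *Gapdh*. *Smad2*, *Smad3*, *Bgn*, *D030025P21Rik*, genes listed at 0, and single genes of the marker lists were named after their values were seen.

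Gene positions, GC content, and coding sequences came from GENCODE vM1 on mm9 (the longest coding transcript, for 89.2% of genes), and promoters from RefSeq. Alternatives covered the pseudocount, 4 scalings, 3 filters, a fold of 2, a floor of 1 FPKM for ligands, and, added after the data were seen, a loess GC correction (span 0.3). Python 3.11.15 was used with statsmodels 0.14.6, scipy 1.17.1, matplotlib 3.10.9, pandas 2.3.3, and numpy 2.4.6. Only the 3-fold call was tried on simulated data, with planted changes past the limit and little noise. The other steps were not tried in this way.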

Additional observations from a re-analysis of the deposited data

How the results depend on the processing

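Of the 60 pairwise log2 ratios of the 10 genes, those past 3-fold kept their sign under every alternative. Among the ratios under the limit, 4 changed sign after rescaling to a common total and 1 under quantile normalization. Relative to *Gapdh* 3 did so, and 3 after the GC correction. The ratios of *Tgfb1* for PF over COR (-3.56 to -2.93) and COR over SAG (1.88 to 2.40), *Ltbp4* for COR over SAG (2.40 to 2.92), and *Ltbp1* for SAG over GP (-2.03 to -1.73) stayed past 3-fold under all 9 alternatives other than the fold itself. Between PF and SAG, 1 of the 10 genes differed 3-fold, as did 15.7% of all genes, both directions together. With a pseudocount of 0.1 the count was 2 (*Ltbp2* added at 1.60), against 27.4% of all genes. After rescaling to a common total it was 0, against 16.3%. Relative to *Gapdh* it was 3 (*Ltbp2* at 2.04 and *Ltbp3* at 1.85 added), against 18.8%, and at 2-fold it was 4, against 34.7%. Between PF and COR, the count of 1 (11.7% of all genes) became 2 with a pseudocount of 0.1 (*Ltbp2* at 1.64), against 22.8%. It was 2 relative to *Gapdh* (*Ltbp2* at 1.82), against 14.1%, and 3 at 2-fold, against 29.4%. Between PF and GP, the count of 1 (12.0% of all genes) became 2 with a pseudocount of 0.1 (*Tgfb1* at -1.72), against 22.4%. It was 3 at 2-fold, against 29.1%. Between SAG and GP it became 2 at 2-fold, and between COR and GP 2 relative to *Gapdh* (*Ltbp4* at 1.59), 3 at 2-fold, and 0 after the GC correction. The GC correction also brought *Tgfb1* past 3-fold for PF over SAG (-1.66) and PF over GP (-1.999). After rescaling to a common total, the number of genes lowest in PF, SAG, COR, and GP moved from 1, 7, 1, and 1 to 2, 4, 2, and 2. That rescaling moved the median log2 ratio of all genes by -0.27 for PF over SAG and by 0.18 for SAG over GP, and *Gapdh* as reference moved it by 0.47 for PF over SAG and 0.41 for PF over GP. The GC correction and the counts of highest and lowest libraries under other scalings were chosen after seeing the data. The 3 filters on low values and the ligand floor changed no value of the 10 genes, all of which passed them. Family sums moved by less than 1.5 times under the 4 scalings. The ratio of *Tgfbr1* to *Tgfbr2* did so under quantile normalization, the only alternative run for it. Ligand shares were rerun only with the ligand floor, which could not change them because every ligand passed it. Shares, sums, and the receptor ratio were not recomputed with the GC correction. No paired analysis was possible because there were no replicates to pair, and leaving out a replicate could not be tried. The cause of these moves was not tested. FPKM without counts sets no depth limit on a single value, and the shallowest library, PF, holds the lowest value, that of *Tgfb1*.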
